A study of Ovis aries with 16 samples.

Results

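CXCL1 and LOC100101238, a gene described as regakine 1-like, are the chemokine genes described here, each across 16 fetal sheep hearts. They are 2 of the 1025 genes that a probe names here, and were followed through all 4 of their probes among the 15008 on the array. The probes were found by gene name, accession and description in the scanner files, where CXCL1 goes under its old name GRO. Both genes were proposed because they ran high in fetuses given angiotensin II, so their values in that arm are given as a description, with no test. The losartan arm used other animals, and its values were tested.

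The 16 fetuses came from 8 twin pregnancies, and 1 array was hybridized per fetus. In twin sets 1 to 4, 1 fetus received losartan, a blocker of the AT1 angiotensin receptor, and its twin was left untreated. In twin sets 5 to 8, 1 fetus received angiotensin II and its twin was left untreated, so each of the 4 groups held 4 fetuses. Ewes carried a pair of fetuses and had surgery at 125 to 126 days of a 145-day gestation, and treatment lasted 5 days through fetal catheters, per the labels, which name no catheter for the untreated twins. The labels call the infusions both daily and continuous, and the tissue both left ventricular free wall and free wall with septum. No strain or fetal sex was used here. The RNA was amplified before labelling. In such whole tissue, more cells of a type and more RNA per cell cannot be told apart.

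Chemokines are small secreted proteins that bind receptors on leukocytes and draw these cells along a gradient. CXCL1 belongs to the CXC chemokines that carry an ELR motif, act through the receptor CXCR2 and attract mainly neutrophils; stressed endothelial and stromal cells make it under NF-kB signalling. Regakine-1 was described as a chemokine of bovine plasma that attracts neutrophils and lymphocytes. Angiotensin II acts on the AT1 receptor, which in adult vessels and heart can induce chemokines.

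The 4 probe sequences, as the scanner files give them, are printed because each gene rests on a single stretch of its transcript. Capitals mark the 59 bases that the pair of probes of a gene share, the probes being shifted by 1 base. The files place the CXCL1 probes at transcript bases 272 and 273 and the LOC100101238 probes at bases 152 and 153.
CXCL1 probe A_70_P039397: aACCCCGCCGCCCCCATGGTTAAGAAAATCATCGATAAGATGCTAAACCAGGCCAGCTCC
CXCL1 probe A_70_P039396: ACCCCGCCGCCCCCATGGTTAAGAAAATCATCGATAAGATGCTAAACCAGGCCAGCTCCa
LOC100101238 probe A_70_P039462: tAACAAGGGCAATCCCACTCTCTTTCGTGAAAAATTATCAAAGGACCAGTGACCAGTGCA
LOC100101238 probe A_70_P039461: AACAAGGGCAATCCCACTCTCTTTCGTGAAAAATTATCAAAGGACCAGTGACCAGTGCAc
Each probe had 1 spot per array, so the probes of a gene are repeat measurements of 1 target and not independent of each other. All 4 were well above background on all 16 arrays and none was saturated. Values below are log2 processed signals relative to the 75th percentile of the same array, and levels are not compared between genes. Each gene is followed through its brighter probe, A_70_P039396 for CXCL1 and A_70_P039461 for LOC100101238.

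On 3 of the 16 arrays the control spots that mark the array corners were brighter than on any other. These were the untreated twin of set 2 and the angiotensin II fetuses of sets 7 and 8, all on the same row of slide 2; the fourth array of that row, losartan set 4, did not stand apart (bright corner 15.29). Their bright corner signal was 17.24 to 17.73 on the log2 scale, against 14.40 to 15.36 on the other 13 arrays. The 3 arrays also stood apart on the first principal component of the tested probes, with scores of 30.2 to 39.8 against -19.1 to -0.4. Whether this came before or after hybridization was not tested, and effects below are given with and without twin sets 2, 7 and 8. Of 20 listed cardiomyocyte markers 3 had a named probe, TPM1, MB and GJA1, and each was well above background on 16 of 16 arrays. As 13352 of the 15008 probes could not be named, a listed gene without a named probe may still be on the array. Detection alone does not identify the tissue, since 57.3% to 64.1% of all probes were well above background.

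CXCL1 was high in the same 3 samples and nowhere else. In the losartan arm its normalized log2 level was 3.57 in the treated and 3.87 in the untreated fetus of set 1, and 4.01 and 7.42 in set 2. Set 3 had 3.17 in the treated and 2.81 in the untreated fetus, and set 4 had 4.34 and 3.46. The untreated fetus of set 2 lay far above all others in that arm. The other untreated fetuses spanned 2.81 to 3.87, and the losartan fetuses of sets 2 and 4 lay above that span. In the angiotensin II arm, the treated and untreated fetuses had 3.78 and 4.06 in set 5, and 3.89 and 3.92 in set 6. They had 7.22 and 3.61 in set 7, and 7.21 and 3.92 in set 8. The treated fetuses of sets 5 and 6 were as low as the untreated ones, so the angiotensin II group split into a low pair and a high pair.

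**Figure D1:**
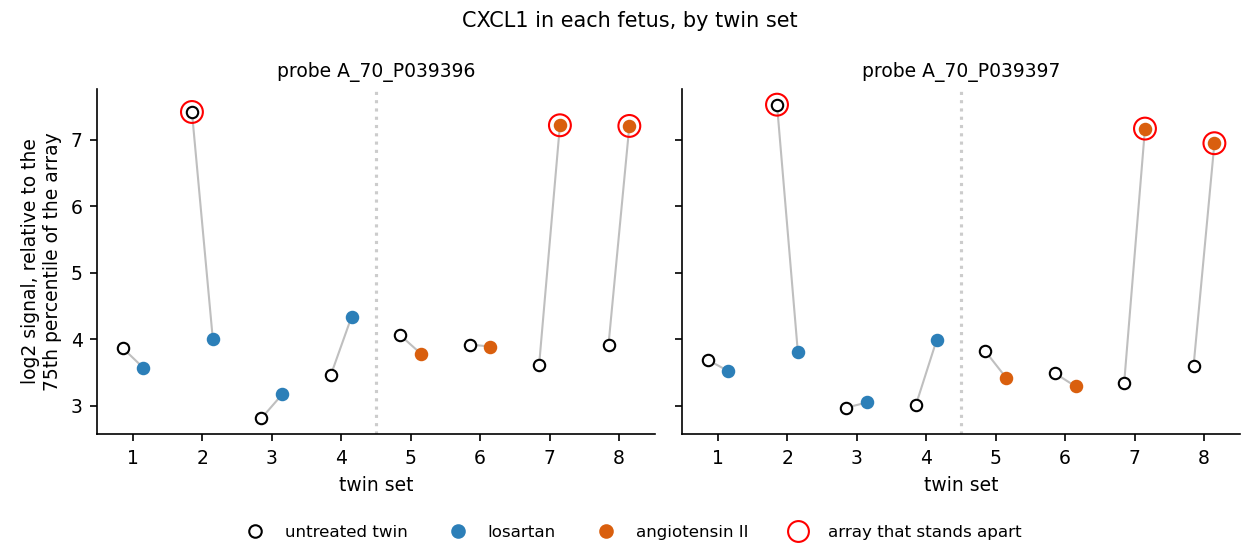
Normalized log2 level of CXCL1 in each of the 16 fetuses, by twin set, for each of its 2 probes; grey lines join twins. The 3 arrays ringed in red, of which 1 is from an untreated fetus, lie at 6.95 or above on both probes, and the other 13 lie at 4.34 or below.

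The group means of CXCL1 carried this split. The mean was 5.52 ± 1.95 (SD, n = 4) with angiotensin II and 3.88 ± 0.19 (SD, n = 4) in the untreated twins of that arm. It was 3.77 ± 0.51 (SD, n = 4) with losartan and 4.39 ± 2.07 (SD, n = 4) in the untreated twins. The twin log2 ratios with angiotensin II were -0.28, -0.04, 3.61 and 3.29 in sets 5 to 8, that is 12.2-fold and 9.78-fold higher in sets 7 and 8 and lower in sets 5 and 6. Their mean was 1.65 ± 2.09 (SD, n = 4) and -0.16 ± 0.17 (SD, n = 2) in sets 5 and 6 alone. With losartan the ratios were -0.30, -3.41, 0.36 and 0.88 in sets 1 to 4. The fetus with losartan in set 2 was thus 10.6-fold below its twin, and it was the twin that was out of range, since 4.01 lies among the other 12 low arrays. The losartan effect was -0.62 (SE 0.79, 95% interval -2.40 to 1.16), with an adjusted p of 0.795 in limma, and 109 of the 8970 tested probes (1.22%) passed in that comparison. Without twin sets 2, 7 and 8 it was 0.31 with an adjusted p of 0.611 in limma, so the direction turned with 1 twin set. The difference of the angiotensin II and losartan effects was 2.26 (SE 1.12) with all twin sets, where 147 of 8970 probes (1.64%) passed in limma, and -0.47 without sets 2, 7 and 8; nothing is read from that background, since the contrast holds the one that chose the gene.

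The overlapping probe A_70_P039397 gave ratios of the same sign in 8 of 8 twin sets. Its ratios were -0.17, -3.72, 0.08 and 0.99 with losartan and -0.40, -0.20, 3.83 and 3.35 with angiotensin II, and no ratio differed between the probes by more than 0.31. The scanner's own error estimate for a CXCL1 ratio was 0.16 in every twin set, which covers the spot measurement and not the spread between fetuses.

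Over the whole array, the mean of the 3 arrays minus the mean of the other 13 was 3.56 for A_70_P039396 (11.8-fold) and 3.76 for A_70_P039397 (13.5-fold). These were ranks 6 and 5 of 8970 tested probes. All 3 arrays were higher than the other 13 for both probes, which was true of 1045 tested probes (11.6%). A difference of over 1 upward was seen in 254 probes (2.83%). Nothing is read from these ranks and shares. The 3 arrays hold the angiotensin II fetuses of sets 7 and 8, from the arm on which the gene was chosen. The separation held under normexp background correction, under quantile normalization and in the authors' deposited value table, where the difference was 2.39 and 2.27. In sets 7 and 8 the treated fetus is on the array that stands apart, so treatment and array cannot be told apart there. In set 2 the untreated fetus is on it, and CXCL1 was high in that untreated fetus.

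**Figure D2:**
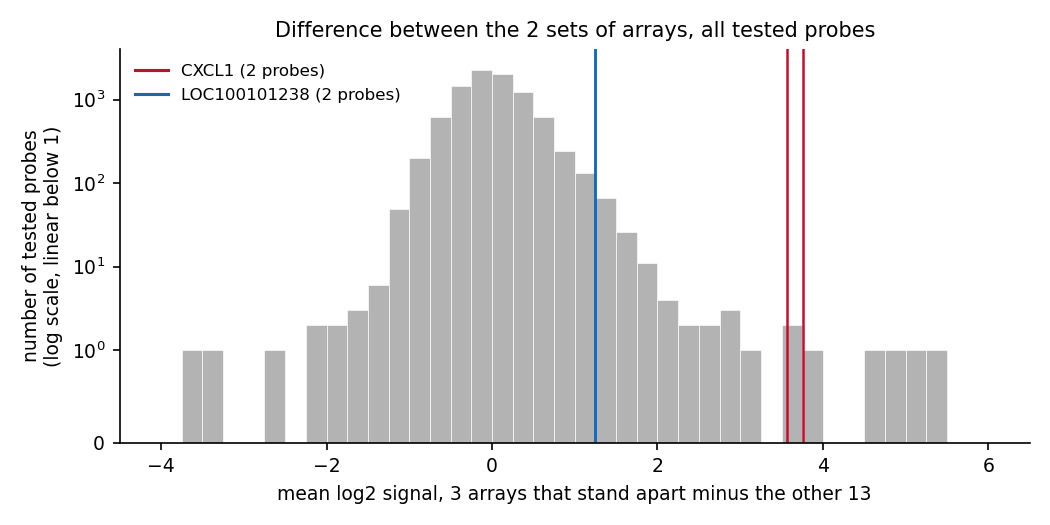
Mean log2 signal on the 3 arrays that stand apart minus that on the other 13, for 8970 tested probes in bins of 0.25; the number of probes is on a log scale that is linear below 1. The CXCL1 probes, at 3.56 and 3.76, lie in the far right tail, and the LOC100101238 probes, both at 1.24, lie on its shoulder.

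The CXCL1 probes share a short run of bases with some of the other probes that separate the same arrays. The word CCCGCCGC lies near the 5′ end of both CXCL1 probes, and it was picked after the values were seen, so its counts are a description. It was found on the printed strand in 6 of the 8970 tested probes (0.0669%), that is in 4 others, none of which has a gene name here. Those 4 are printed with the word in capitals, since their flanking bases are only partly shared with CXCL1. The base before the word is C in 3 of the 4, as in both CXCL1 probes, and all 3 arrays were higher in 2 of those 3. After the word, A_70_P009106 has CC and A_70_P017246 a final C, also as in CXCL1.
A_70_P009106: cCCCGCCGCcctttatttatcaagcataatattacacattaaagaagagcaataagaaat
A_70_P040361: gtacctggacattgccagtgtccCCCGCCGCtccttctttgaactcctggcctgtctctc
A_70_P031601: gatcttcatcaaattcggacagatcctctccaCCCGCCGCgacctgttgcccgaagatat
A_70_P017246: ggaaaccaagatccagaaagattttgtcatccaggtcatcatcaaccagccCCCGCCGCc
For 3 of the 4 the 3 arrays were all higher than the other 13, by 3.51, 2.96 and 2.49 on the log2 scale in the order printed. The fourth, A_70_P017246, in which the word lies at position 52 of the 60-base probe, differed by -0.26. In the other probes it starts at positions 2, 24 and 33, and at positions 3 and 4 in the CXCL1 probes. The twin log2 ratios of A_70_P009106 were -3.52 in set 2, 3.85 in set 7 and 2.89 in set 8, against 0.02 in set 6. The GC content of that probe was 35.0%, against 53.3% for each CXCL1 probe. The shorter word CCGCCGC, the end of the longer one, was in 8 tested probes other than CXCL1, the 4 above included. Their median difference was 1.46, all 3 arrays were higher in 6 of the 8, and 4 of the 8 differed by over 1. The reverse complement of the longer word, GCGGCGGG, was in 0 tested probes. That of the shorter word, GCGGCGG, was in 6, with a median difference of 0.60, and all 3 arrays were higher in 2 of them. Their differences ran from 0.23 to 4.75, and 1 was over 1. Over all 8970 tested probes, all 3 arrays were higher in 11.6%, and 2.83% differed by over 1. The tested probes with larger differences than the CXCL1 probes held neither word on the printed strand. Neither word was in the LOC100101238 probes on the printed strand. What makes these probes bright on the same arrays was not tested.

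**Figure D3:**
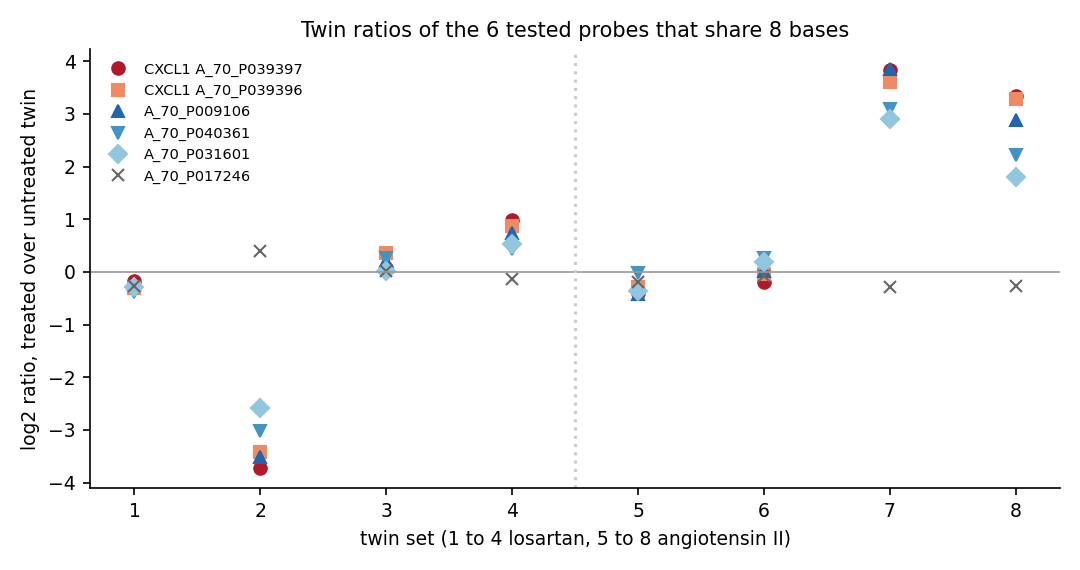
Twin log2 ratios, treated over untreated, of the 6 tested probes that hold the 8-base word, by twin set, with 1 symbol per probe. In 5 of the 6, the ratios are -2.59 or lower in set 2 and 1.80 or higher in sets 7 and 8; the grey crosses show A_70_P017246, which stays between -0.29 and 0.40.

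LOC100101238 was higher in the angiotensin II fetus than in its untreated twin in all 4 sets. These include sets 5 and 6, which hold no array that stands apart. The twins of set 6 were on the same slide, and those of set 5 on different slides, as were those of sets 1, 4 and 7. With angiotensin II its log2 level was -2.42 against -2.86 in the untreated twin of set 5, and -1.16 against -1.74 in set 6. It was -0.70 against -1.99 in set 7, and -1.62 against -3.07 in set 8. The twins of sets 6 and 7 were high in both treated and untreated fetuses, so the group ranges overlap and the difference shows within pairs. With losartan the level was -2.75 against -2.64 in set 1 and -2.37 against -1.57 in set 2. It was -3.10 against -2.83 in set 3, and -2.96 against -3.02 in set 4. The untreated fetus of set 2, whose array stands apart, was the highest of the losartan arm.

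**Figure D4:**
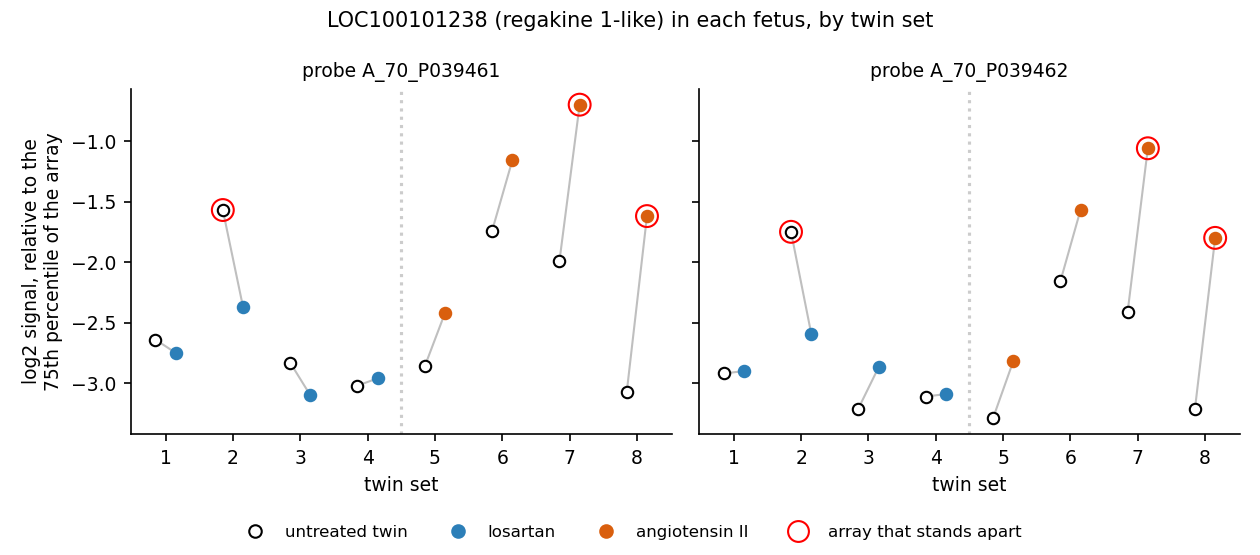
Normalized log2 level of LOC100101238 in each of the 16 fetuses, by twin set, for each of its 2 probes; grey lines join twins and red rings mark the 3 arrays that stand apart. The angiotensin II fetus is the higher twin in sets 5 to 8 on both probes, and sets 6 and 7 lie high for both twins.

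The twin log2 ratios of LOC100101238 with angiotensin II were 0.45, 0.58, 1.29 and 1.46 in sets 5 to 8. Their mean was 0.95 ± 0.50 (SD, n = 4), 1.93-fold, and 0.52 ± 0.10 (SD, n = 2), 1.43-fold, in sets 5 and 6 alone. The treated fetus was higher in 4 of 4 sets for 8.18% of tested probes, and 0 of 8970 (0.0%) passed limma's threshold in that comparison, with 935 at an unadjusted p under 0.05. Since the gene was chosen on this contrast, nothing is read from that count. The probe A_70_P039462 gave ratios of 0.47, 0.58, 1.35 and 1.41. In the authors' deposited value table the ratios of A_70_P039461 were 0.24, 0.65, 0.77 and 0.84, of the same sign, smaller in sets 5, 7 and 8 and larger in set 6. The scanner's error estimate was 0.28 for the ratio of set 5 and 0.19 for that of set 6, and covers the spot measurement only.

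With losartan the LOC100101238 ratios were -0.11, -0.80, -0.27 and 0.06 in sets 1 to 4. The fitted effect was -0.28 (SE 0.19, 95% interval -0.71 to 0.15), with an adjusted p of 0.595 in limma. Without twin sets 2, 7 and 8 it was -0.11 with an adjusted p of 0.772 in limma. The other probe gave -0.11 (SE 0.21), and its ratios changed sign against A_70_P039461 in 2 of 8 twin sets. Group means were -2.79 ± 0.32 (SD, n = 4) with losartan and -2.51 ± 0.65 (SD, n = 4) in its untreated twins, and -1.47 ± 0.73 (SD, n = 4) with angiotensin II and -2.42 ± 0.65 (SD, n = 4) in its untreated twins. On the 3 arrays that stand apart the level was 1.24 above that on the other 13 (2.36-fold, rank 130 of 8970). The ranges overlapped, the highest of the 13 being -1.16 and the lowest of the 3 being -1.62. Nothing is read from that rank either, since the angiotensin II fetuses of sets 7 and 8 are among the 3. Without the twin block, the effect of angiotensin II was 0.08 within slide 1 and 1.81 within slide 2. On slide 1 the angiotensin II fetuses of sets 5 and 6 met the untreated fetuses of sets 6 and 7. On slide 2 those of sets 7 and 8, whose arrays stand apart, met the untreated fetuses of sets 5 and 8. Slide, array and twin set cannot be told apart there.

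Likeness between genes is given as a description. Pearson's r between the levels of CXCL1 and LOC100101238 was 0.68 over 16 arrays, 0.89 over the 8 twin ratios and 0.22 over the 13 arrays other than the 3, where points share slide and labelling. The 5 named genes whose probes followed CXCL1 most closely over 16 arrays, of 519 compared, were SLC16A1, a lactate transporter, with r of 0.98, C-JUN, an immediate early transcription factor, with 0.98, HK1, hexokinase, with 0.97, DERL1, of the endoplasmic reticulum, with 0.96, and LOC100037664 with 0.95. Over 13 arrays these were 0.78, 0.49, 0.84, 0.82 and 0.48. The C-JUN probe holds the shorter word CCGCCGC at position 41, and its 3 arrays were higher by 0.98. For LOC100101238 the first 5 were LOC443338 (r of 0.84), H2AZ1 (0.82), CALM2 (0.82), HOMER (0.78) and CBX5 (0.78), and over 13 arrays r was between 0.54 and 0.68.

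The rest of the chemokine system was thinly covered by named probes. Of the 10 listed ELR chemokines and their receptors, 2 had a named probe and were tested, CXCL1 and CXCL8. Neither passed with losartan. CXCL8, which also attracts neutrophils through CXCR1 and CXCR2, was dim: it was well above background on 12 of 16 arrays, and on 1 of 4 untreated arrays of the losartan arm. Its log2 ratio with angiotensin II was 0.90, 0.81 and 1.03 in sets 5 to 7 and -0.10 in set 8. Set 8 thus had high CXCL1 on its treated array without high CXCL8. The fitted CXCL8 effect of angiotensin II was 0.66 (SE 0.21), adjusted p of 0.457 in limma, and the losartan effect 0.07, adjusted p of 0.928 in limma. Without sets 2, 7 and 8 these were 0.85 (adjusted p of 0.447 in limma) and -0.13 (adjusted p of 0.757 in limma). The 3 arrays that stand apart differed by -0.05 for CXCL8, unlike CXCL1.

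Of 45 other listed chemokines and receptors, 9 had a named probe and 6 were tested, LOC100101238 among them. Of the 5 besides it, 0 passed in either arm, and their median effect was -0.32 with losartan and -0.29 with angiotensin II. Without sets 2, 7 and 8 the medians were -0.31 and -0.07, and CXCL10 passed with losartan. In that fit 121 of 8970 tested probes (1.35%) passed with losartan and 1 (0.0111%) with angiotensin II; it was applied to the lists after seeing the data. CXCL10, an interferon-induced chemokine, had losartan ratios of -2.73, 1.12, -1.10 and -2.44 in sets 1 to 4. It was not well above background on the losartan array of set 4, nor on the untreated array of set 8. Its ratios with angiotensin II were 1.55, 2.76, -0.07 and 0.33 in sets 5 to 8. Its losartan effect was -1.29 (adjusted p of 0.440 in limma), and -2.09 (adjusted p of 0.0329 in limma) without sets 2, 7 and 8. With angiotensin II its effect was 1.14 (adjusted p of 0.506 in limma), and 2.15 (adjusted p of 0.428 in limma) without those sets. XCL1, a lymphocyte chemokine, had effects of -0.37 with losartan and -0.29 with angiotensin II, and -0.31 and -0.10 without sets 2, 7 and 8. CCL25, which draws thymocytes, had 0.19 and -0.34, and 0.05 and -0.07 without those sets. The receptor CXCR4 had -0.32 and -0.29, and -0.65 and 0.04 without them, so its angiotensin II value turned sign. The receptor CCR10 had 0.10 and -0.23, and 0.12 and -0.14 without them. CCL28, CCR3 and CCR9 were not well above background on enough arrays to be tested. Over all tested probes the median effect was 0.01 with losartan and -0.02 with angiotensin II.

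Few markers of the cells these chemokines attract, and of the pathway known to induce CXCL1, were measured by a named probe. Of 31 listed inducers and targets of NF-kB signalling 4 were tested, and 0 passed with either treatment: NFKBIA, an inhibitor of the pathway, had angiotensin II ratios of 0.18, -0.03, 1.02 and 0.91 in sets 5 to 8. Its effect was 0.52 (adjusted p of 0.477 in limma), and 0.07 without sets 2, 7 and 8. IL1B, a cytokine, had 0.30 with angiotensin II and 0.25 without those sets. None of the 4 passed without those sets either. Of 24 listed neutrophil markers 8 had a named probe and 4 were tested, all cathelicidins, antimicrobial peptides of granules from closely related genes. CATHL1B rose by 2.46 (adjusted p of 0.0478 in limma) and CATHL3 by 2.52 (adjusted p of 0.0256 in limma) with losartan, while BAC5 and SC5 had 2.23 and 2.19 without passing. With angiotensin II 0 of the 4 passed, and their effects lay between 0.06 and 0.47. In sum over the list, signal relative to the 75th percentile was 0.828 to 2.41 in the untreated twins of the losartan arm, 3.06 to 17.1 with losartan, 0.831 to 6.14 with angiotensin II and 0.678 to 3.31 in its untreated twins. On the 3 arrays with high CXCL1 that sum was 1.23 to 2.26, inside the range of 0.678 to 17.1 of the other 13. Of the 4 untested markers, ITGAM and MMP9 were well above background on 0 arrays, LTF on 1 and ITGB2, a leukocyte integrin, on 11 of 16. Without sets 2, 7 and 8 all 4 cathelicidins passed with losartan, including BAC5 at 2.93 (adjusted p of 0.0298 in limma), against 1.35% of all tested probes. Of these, SC5 was well above background on only 11 of 16 arrays, and CATHL1B, CATHL3 and BAC5 on all 16. Of 18 macrophage and leukocyte markers 5 were tested and 0 passed in either arm, with or without those sets, where 1.22% of all tested probes passed with losartan and 0.0% with angiotensin II in the fit of all sets. The part of these cells in the chemokine levels was not tested.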

How the data were processed

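RNA from 16 fetal sheep hearts was hybridized to a 1-colour (red) Agilent sheep array, 8 arrays on each of 2 slides. The scanner files hold spot intensity values that, per the file headers, came from Agilent Feature Extraction 10.7.3.1 after background subtraction and detrending and without scaling across arrays. In the deposited value table, used as an alternative, numbers track the natural log of mean signals (lowest r 0.9978), with its making not given in the sources used here. Within each array its values rise with the scanner signal. Its columns have like medians (8.37 to 8.39 after conversion to log2), and any further adjustment is unknown. Between slides its CXCL1 values do not follow the normalized scanner values, as given below.

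Outlier spots and control spots were left out. Values were log2 processed signals minus the 75th percentile of the array, which was 1123.5 to 1709.3 fluorescence units, and 57.3% to 64.1% of probes were well above background. A probe entered the tests when all arrays of 1 group or more had it well above background (8970 probes). Limma 3.58.1 (R 4.3.3, statmod 1.5.0) was fitted on the 16 arrays, with a fixed term for each of the 8 twin sets and 1 for each treatment, leaving 6 residual degrees of freedom; tests were two-sided, with Benjamini-Hochberg adjusted p under 0.05 as the threshold. The pairing comes from the labels' twin sets. The number of arrays limits the precision. Names came from the files or RefSeq's gene table for assembly ARS-UI_Ramb_v3.0; 1656 probes could be named and 13352 could not. The brightest tested probe by mean log2 value stood for its gene. Named were all probes of both chemokines, every measured chemokine and receptor, up to 4 list members with the smallest unadjusted p in either arm, and the 5 genes most correlated with each chemokine over 16 arrays. The text omits some list members so chosen. The members and lists were chosen with earlier results of these data known. The code was tested on simulated data. Python 3.11.15 with numpy 2.4.6, pandas 2.3.3 and matplotlib 3.10.9 was used for descriptions and figures.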

Additional observations from a re-analysis of the deposited data

Results flagged for a closer look

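In 3 cases a value stood far from the rest of their group of 4 fetuses, by a gap that was more than 0.829 of the group's range. Chance flags about 1 in 20 groups, and many groups were looked at. The untreated fetus of set 2 had a normalized log2 level of 7.53 for CXCL1 on probe A_70_P039397, where the other untreated fetuses of the losartan arm had 2.97, 3.01 and 3.69. On the overlapping probe A_70_P039396 the same fetus had 7.42, against 2.81, 3.46 and 3.87, which did not reach that cut. The angiotensin II fetus of set 8 had -3.42 for CXCL8, where the other 3 had -2.53, -2.45 and -2.43. The untreated fetus of set 7 had -3.48 for CXCL8, where the other untreated fetuses of that arm had -3.34, -3.33 and -3.32, a gap of 0.14 on a dim probe.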

How the results depend on the processing

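All listed alternatives could be fitted, except that each arm on its own gives no difference of the effects. The losartan effect passed within slide 2 for the CXCL1 probes and under no other alternative for any of the 4 probes. With no replicate block in place of the twin sets the losartan effects stayed at -0.62 for CXCL1 and -0.28 for LOC100101238, without passing, and 0 probes passed with losartan instead of 109. Losartan counts were 68 with twin set as a random block, 434 in the authors' deposited value table, 57 with probes well above background on all arrays, 43 within slide 1, 548 within slide 2 and 41 with each arm on its own. They were 34 to 99 with 1 twin set left out. With angiotensin II 354 probes passed within slide 2 and 1 without twin sets 2, 7 and 8, against 0. The losartan effect on CXCL1 within slide 2 was -3.44, with an adjusted p of 0.0022 in limma, where the only untreated array of that arm is the one that stands apart and is assumed to vary like the others; within slide 1 it was -0.21, with slide as a further block -1.57, and in the authors' table -1.37. Its range with 1 twin set left out was -1.12 to 0.31. The angiotensin II effect on LOC100101238 was 0.08 within slide 1 and 1.81 within slide 2, 0.63 with normexp and 0.62 in the authors' table. Within slide 2 the angiotensin II arrays are those of sets 7 and 8, which stand apart. Treatment and array thus cannot be told apart in the slide 2 count, effects and differences for angiotensin II. The difference of the effects within slide 2 was 6.67 for CXCL1 and 2.94 for LOC100101238, and within slide 1 it was 0.35 for LOC100101238. In the authors' table CXCL1 on the 13 other arrays was 14.33 to 15.39 on slide 1 and 13.55 to 14.23 on slide 2, which leaves its ratios for twins on different slides unlike those above, such as 1.31 in set 5. The cause was not tested.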

Other observations

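Over the 13 arrays other than the 3 that stand apart, the named genes whose level followed LOC100101238 most closely were PSME2 (r of 0.88), ISG15 (0.86), MX2 (0.85), PDXK (0.82) and CXCL10 (0.79), of 519 compared. ISG15, MX2 and CXCL10 are known interferon-induced genes, and PSME2 encodes a proteasome activator subunit that interferon induces. This ranking was made after the values were seen, the arrays share slide and labelling, and over the 8 twin ratios r was 0.19 for PSME2, 0.30 for ISG15, -0.01 for MX2, 0.69 for PDXK and 0.23 for CXCL10. On the 3 arrays that stand apart MX2 was lower, by 1.08, while LOC100101238 was higher by 1.24.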
